A study of Mus musculus with 24 samples.

Results

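Expression of immunoglobulin kappa and heavy chain segments was examined in mouse colon on Agilent 1-color oligonucleotide arrays. The segments were taken as all probes that are not controls and whose name on the array is an Ensembl transcript accession between ENSMUST00000103301 and ENSMUST00000103560. This range held 146 of the 56605 probes, for 139 accessions, and is called here the segment probes. The range was selected on HFD and LFD levels of these same arrays, in which some of its members had stood out, so values of the segment probes in those comparisons are given as a description and without a p-value. The files gave no gene symbol for them, and none of the 139 accessions matched the gene table used here, so each is named by its accession and which segment it encodes was not determined. That the range holds mainly kappa and heavy chain segments rests on the accession numbers, and the arrays could check only whether the probes followed genes of antibody-producing cells.

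An antibody is built of light chains, of the kappa or lambda type, and heavy chains. During the development of a B cell, variable, diversity and joining segments of the immunoglobulin loci are joined by recombination, so that each cell transcribes a rearranged variable segment next to a constant region, and different segments are used by different cells. Plasma cells are the end stage of the B cell lineage and carry very large amounts of immunoglobulin transcripts. In the colon most of them lie in the lamina propria and secrete dimeric IgA, which is held together by the joining chain and carried through the epithelium by the polymeric immunoglobulin receptor.

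The arrays held colon RNA of 24 C57BL/6J mice. Males (M), intact females (F) and ovariectomized females (F(OVX)) were each fed a diet with 10 kcal% fat (LFD) or with 45 kcal% fat (HFD) for 14 weeks, with 4 mice for each of the 6 combinations, and M and F mice had sham surgery. All of them arrived at 7 weeks of age, were given the carcinogen azoxymethane (AOM) at 10 mg/kg and then drank 1.5% dextran sulfate sodium (DSS), an agent that injures the colon lining, in 3 cycles, and they were killed 75 days after AOM. No group went without AOM and DSS. The study asked how diet acts on the colon in each sex and after ovariectomy. In bulk tissue, fewer cells of a type and less RNA per cell cannot be told apart.

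Levels are log2 processed signals after quantile normalization over the 24 arrays. The share of all probes well above background ran from 40.5% to 61.9% over the arrays, and no spot was saturated. Each sex or surgery was on 1 slide, where LFD arrays took row 1 and HFD arrays row 2, so slide and sex, and row and diet, cannot be told apart. M + LFD replicates 1 and 2 stood apart in Hoxb13, a gene of the distal colon, which read 2.18 and 5.04 against 12.58 to 14.79 on the other 22 arrays. Without both of these arrays, the segment median and number called are given for diet in males, and comparisons of M with F on LFD. Other results that hold these arrays are given with them, or with single arrays left out.

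Most segment probes gave signal in every mouse. Of all 146, 84 gave signal well above background on all 24 arrays (57.5%), 9 on 23, 27 on 12 to 22, 15 on 1 to 11 and 11 on no array. Over all probes, 21160 of 56605 were so on all 24 arrays (37.4%). An array had 98 to 131 segment probes well above background, with the lowest count on M + HFD replicate 4 and the highest on F + LFD replicate 3. Detection differed along the range of accessions. In its lower part, 57 of 77 probes were detected on all arrays (74%) and none was missed on every array, whereas in its upper part 27 of 69 were detected on all arrays (39.1%) and 11 on none. At the edges of the range, ENSMUST00000103301 read 8.96 and was detected on 24 arrays, the next probe below the range, ENSMUST00000103299, read 8.93 and 10.14 with its 2 probes, and the nearest above it, ENSMUST00000103564, read 3.80 and was detected on 7 arrays.

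**Figure D1:**
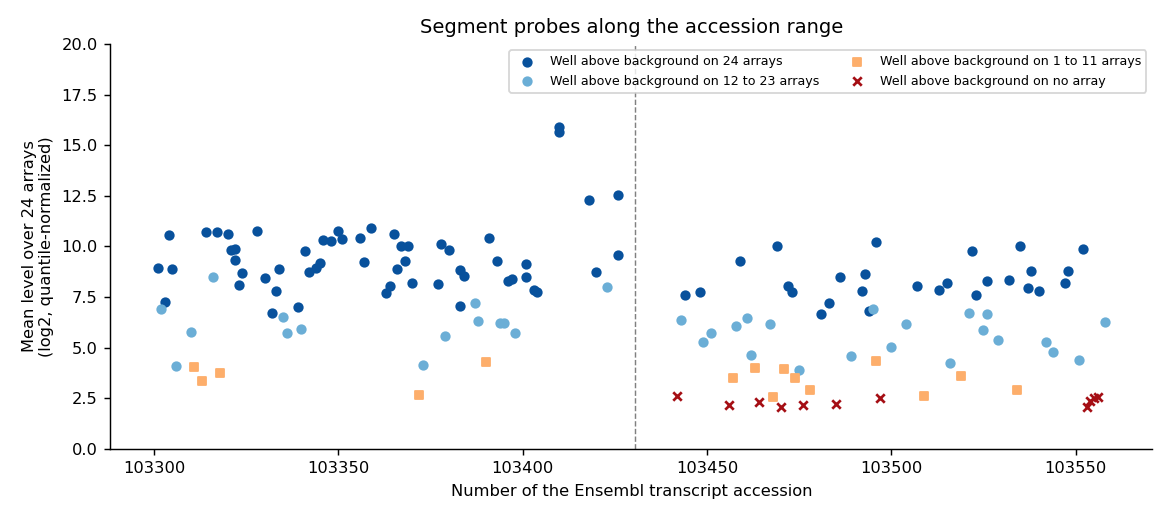
Mean level over the 24 arrays (vertical axis, log2) of the 146 segment probes against the number of the Ensembl accession (horizontal axis), with color and marker for the number of arrays on which a probe was well above background. The dashed line parts the lower from the upper part of the range, and all 11 probes detected on no array lie to its right.

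The brightest signals came from ENSMUST00000103410, with both of its probes. Signals of different probes depend on the probe as well as on the transcript and are not ranked as amounts of RNA. The brighter probe of ENSMUST00000103410 read 14.55, 16.20, 16.16 and 16.69 in M + LFD and 15.98, 15.57, 16.60 and 15.03 in M + HFD. It read 16.13, 15.99, 16.57 and 16.55 in F + LFD and 15.71, 15.68, 16.26 and 16.01 in F + HFD. In F(OVX) + LFD it read 16.19, 16.02, 15.55 and 15.83, and in F(OVX) + HFD 16.07, 14.89, 15.46 and 15.69. M + LFD replicate 1 was thus the lowest array for the brightest segment probe, and the group ranges overlapped in every comparison of diets. Its second probe gave the same picture, with r = 0.99 between the probes over the 24 arrays, and the 2 probes had the smallest ranges of the 84 (2.15 and 2.08). After ENSMUST00000103410, the brightest accessions were ENSMUST00000103426 (mean 12.53), ENSMUST00000103418 (12.30), ENSMUST00000103359 (10.92), ENSMUST00000103350 (10.78), ENSMUST00000103328 (10.75), ENSMUST00000103314 (10.72), ENSMUST00000103317 (10.69) and ENSMUST00000103320 (10.63), all of the lower part of the range. Their ranges over the 24 arrays were wider than that of ENSMUST00000103410, from 2.81 for ENSMUST00000103314 to 5.26 for ENSMUST00000103426. The lowest value was on M + LFD replicate 1 for ENSMUST00000103418 (9.65), ENSMUST00000103359 (8.72) and ENSMUST00000103350 (8.56), on M + HFD replicate 4 for ENSMUST00000103314 (9.03) and ENSMUST00000103317 (8.95), and on F(OVX) + HFD replicate 2 for ENSMUST00000103328 (8.88). HFD minus LFD for these 6 was between -0.71 and -0.42 in F and between -1.08 and -0.09 in F(OVX). It was between -0.58 and 0.08 in M, and none of the 6 was called. ENSMUST00000103320 differed by -0.02 in M, -0.22 in F and -1.46 in F(OVX), where the diets did not overlap. The brighter probe of ENSMUST00000103426 differed by 1.01 in M, -0.22 in F and -0.57 in F(OVX).

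The segment probes varied more from mouse to mouse than other probes. The SD within groups had a median of 0.90 over the 84 probes detected on all arrays, against 0.30 over all 21160 probes so detected and 0.30 over the 6754 of these within the quartiles of level of the segment probes. The range over the 24 arrays had a median of 3.67, against 1.25 over all probes. The probe with the widest range, ENSMUST00000103339, spanned 6.33. It read 4.00, 8.41, 6.38 and 6.98 in M + LFD, and 5.75, 6.11, 10.33 and 6.58 in F + HFD, so that single mice of one group lay at either end. The other probes with wide ranges were ENSMUST00000103330 (5.35), ENSMUST00000103472 (5.28) and both probes of ENSMUST00000103426 (5.26 and 5.23).

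Most of this variation was shared, so that a mouse low in one segment was low in most. The median of the 84 probes was 7.00, 9.02, 8.78 and 9.71 in M + LFD, 8.92, 8.29, 9.70 and 7.30 in M + HFD, and 8.54, 9.23, 10.02 and 10.10 in F + LFD. It was 8.70, 9.22, 9.45 and 9.12 in F + HFD, 8.87, 9.50, 9.28 and 8.84 in F(OVX) + LFD, and 9.06, 8.04, 8.47 and 8.63 in F(OVX) + HFD. The lowest arrays were M + LFD replicate 1 and M + HFD replicate 4, and they held the lowest of the 24 values for 43 and 34 of the 84 probes. The highest were F + LFD replicates 3 and 4, which held the highest value for 14 and 17, followed by M + LFD replicate 4 with 15 and M + HFD replicate 3 with 13. As mean ± SD (n = 4), the median was 8.63 ± 1.16 in M + LFD, 8.55 ± 1.01 in M + HFD, 9.47 ± 0.73 in F + LFD, 9.12 ± 0.31 in F + HFD, 9.12 ± 0.32 in F(OVX) + LFD and 8.55 ± 0.42 in F(OVX) + HFD. The SD itself ran from 0.31 in F + HFD to 1.16 in M + LFD, so the groups had no common spread, and these means were not tested.

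**Figure D2:**
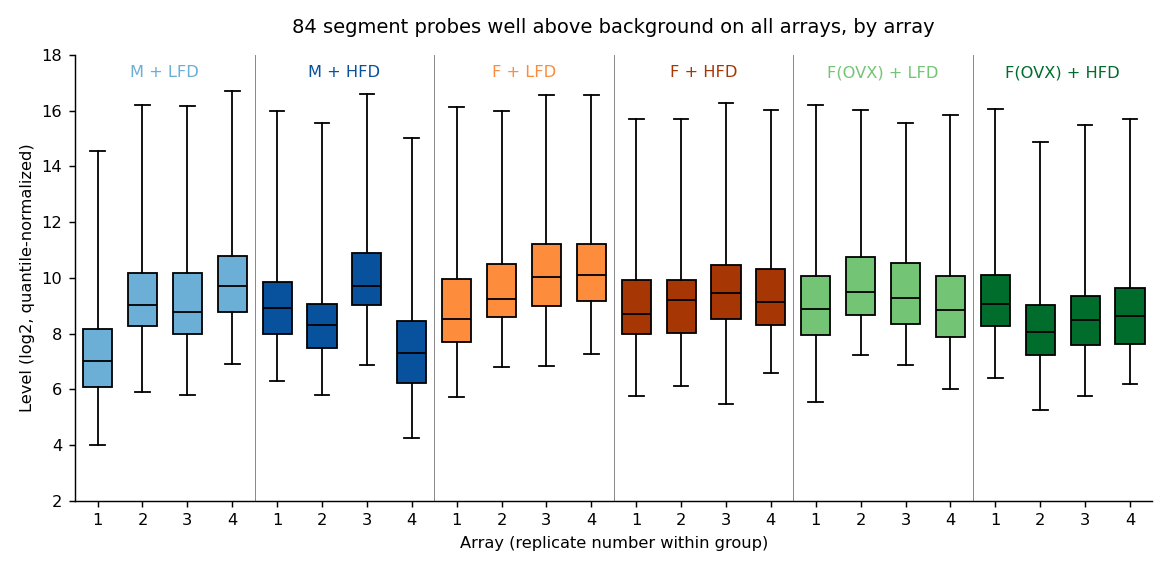
Levels (vertical axis, log2) of the 84 segment probes detected on all arrays, for each of the 24 arrays by group (horizontal axis). Boxes give the quartiles, the line the median and the whiskers the lowest and highest probe. The medians run from 7.00 on M + LFD replicate 1 to 10.10 on F + LFD replicate 4.

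Over the 24 arrays, each of the 84 probes was set against the median of the other members. Pearson's r lay between 0.48 and 0.96 with a median of 0.82, Spearman's rho had a median of 0.77, and r had a median of 0.83 after the group means were taken off. Without M + LFD replicate 1 and M + HFD replicate 4, the median r was 0.73 (0.28 to 0.94). These are descriptions over arrays that share a normalization and, in sets of 8, a slide. The first principal component took 68.7% of the variance of the 84 probes. The closest to the others were ENSMUST00000103496 (r = 0.96) and ENSMUST00000103535 (0.96), both of the upper part of the range, and the least alike was ENSMUST00000103548 (0.48).

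Beneath the shared component, small sets of segments moved almost as 1 signal. Of the 3486 pairs among the 84 probes, 58 had r of at least 0.95 (1.66%). Such pairs made up 31 of the 289 pairs whose accessions lay 1 to 10 numbers apart (10.7%), 18 of 1060 at 11 to 50 (1.7%) and 7 of 2132 farther apart (0.328%). The closest pairs were ENSMUST00000103367 with ENSMUST00000103369 (r = 0.995), ENSMUST00000103350 with ENSMUST00000103356 (0.99) and ENSMUST00000103366 with ENSMUST00000103368 (0.99). ENSMUST00000103367 read 10.92, 10.57, 10.52 and 10.02 and ENSMUST00000103369 10.89, 10.56, 10.55 and 9.87 on the same F(OVX) + LFD arrays. Segments of a family can be nearly identical in sequence, and a probe may then bind transcripts of its neighbours, so counts of segment probes are not counts of independent segments. Whether these pairs share transcripts was not tested, as probe sequences were not analysed here. Of 7 accessions with more than 1 probe, 6 had pairs with r between 0.87 and 0.99. The exception was ENSMUST00000103496 (r = 0.26), whose dimmer probe was detected on 11 arrays.

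Among probes with a symbol, those most like the segment probes included 3 genes of antibody secretion. Of the 21076 probes outside the range that were detected on all arrays, 41 had r of at least 0.8 with the segment median, where the quartiles over all of them were -0.23 and 0.15. Of these 41, 35 had no symbol here, 28 of them under other Ensembl transcript accessions, and 6 had one. The named ones were Mzb1, a chaperone of antibody assembly in the endoplasmic reticulum (r = 0.90, rho = 0.79), Derl3, which serves the disposal of misfolded proteins there (0.88, 0.74), Gm10318 (0.85, 0.85), Eaf2, a transcription elongation factor (0.84, 0.84), Cacna1s, a calcium channel subunit (0.83, 0.68), and Jchain, the joining chain (0.81, 0.74). With group means taken off, r was 0.89 for Mzb1, 0.87 for Derl3 and 0.85 for Jchain, and without the 2 arrays lowest in segments it was 0.78, 0.75 and 0.76.

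Other genes of the plasma cell list followed less closely or not at all. Tnfrsf17, the receptor for survival signals of plasma cells, had r = 0.81 on a probe detected on 21 arrays, Irf4 had 0.74, Pou2af1 0.71 and Slamf7 0.68. Irf4 and Pou2af1 encode a transcription factor and a coactivator that act in B and plasma cells. Xbp1, the transcription factor of the secretory program, had 0.35, Prdm1 0.35 and Sdc1 -0.41, and Xbp1 and Sdc1 are also expressed by colon epithelium. Over the 18 genes of the list the median r was 0.35, and over the 20 genes of mature B cells it was 0.62 (0.36 to 0.70). Cd79a, the partner of Cd79b in the B cell receptor, had 0.69, and Cr2 and Fcer2a, receptors for complement and IgE on B cells, had 0.58 and 0.60. Pax5, the factor that keeps B cell identity, was well above background on 1 array. Without the 2 lowest arrays, r fell to 0.35 for Ms4a1 and 0.46 for Cd79b, from 0.64 and 0.70. Of the plasma cell list, r was then 0.75 for Tnfrsf17, 0.64 for Irf4, 0.53 for Pou2af1 and 0.48 for Slamf7. It was 0.55 for Prdm1, -0.22 for Xbp1 and -0.41 for Sdc1. Likeness that held without these arrays was not confined to plasma cell genes, as Csf1r of the myeloid list had 0.76. Epcam, of the epithelium, had -0.37.

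The segment probes were set beside the mean of Jchain, Mzb1 and Derl3 and beside that of Ms4a1 and Cd79b, B cell surface proteins. The former 3 are the genes detected on all arrays of the plasma cell list with the highest r to the segment median, and both means were picked with such values known, so that 83 of the 84 probes were closer to the former was largely set by that choice and is no sign of their source. Over the whole lists the order was the other way, as above (0.35 and 0.62). The medians of r were 0.78 with the plasma cell mean and 0.56 with the B cell mean, and these means were themselves correlated (r = 0.74). The exception was the dimmer probe of ENSMUST00000103426, with r = 0.82 and 0.90, while the brighter probe of that accession had 0.84 and 0.78. M + LFD replicate 1 and M + HFD replicate 4 were the lowest arrays in both means, at 9.23 and 9.66 for the plasma cell genes and 5.96 and 6.19 for the B cell genes. Segments and B cell genes did not always go together in a mouse. M + LFD replicate 2 lay near the bottom of the arrays in the B cell mean (7.56) and near their middle in the segment median (9.02), and M + HFD replicate 2 lay in the upper part in the former (10.80) and near the bottom in the latter (8.29).

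**Figure D3:**
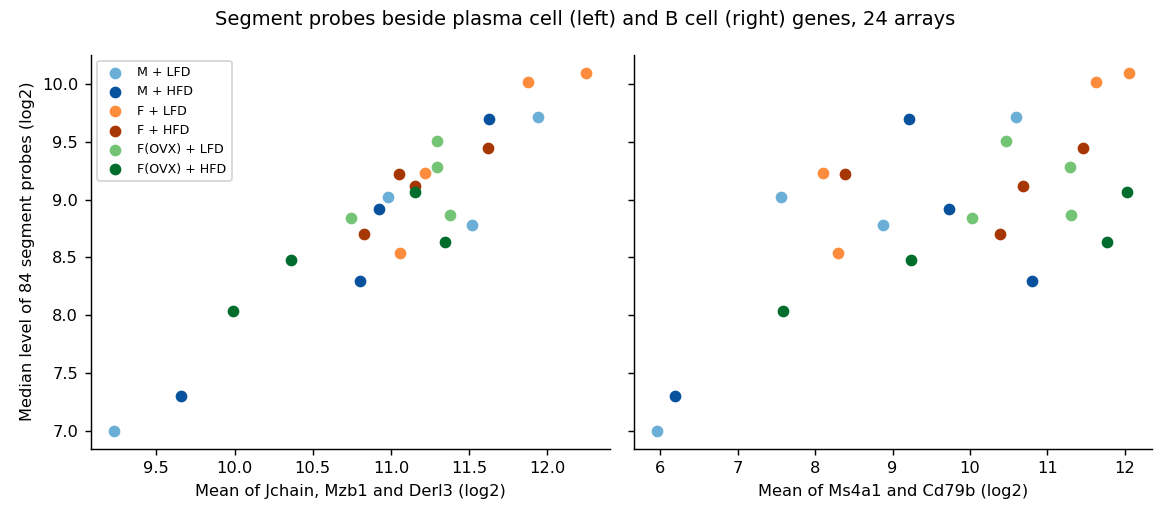
Median level of the 84 segment probes (vertical axis, log2) against the mean level of 3 plasma cell genes (left) and 2 B cell genes (right), both in log2, with 1 point for each of the 24 arrays and color by group. The points lie closer to a line on the left, and the lowest pair on both sides are M + LFD replicate 1 and M + HFD replicate 4.

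Of 7 genes of early B cells and recombination, 4 were well above background on no array: Rag1 and Rag2, the recombinase, and Igll1 and Vpreb2, of the surrogate light chain. Dntt, which adds bases at the joints of segments, was so on 7 arrays, and Vpreb1, also of the surrogate light chain, on all 24, with r = -0.15 to the segment median. Vpreb3, which is expressed in the B lineage beyond its early stages, was detected on all 24 arrays and followed the segments with r = 0.70. Of the genes of IgA transport and homing, Ccr10, the receptor that draws IgA plasma cells to the colon, had r = 0.68 on a probe detected on 17 arrays, and Itga4 and Itgb7, whose products form the gut homing integrin, had 0.69 and 0.61. The epithelial ligand of Ccr10, Ccl28, had -0.10, and Pigr, the polymeric immunoglobulin receptor, -0.32. Among lists of other cells, r lay between -0.70 (Epcam) and -0.26 for 5 epithelial genes, between 0.04 and 0.13 for 5 of smooth muscle, between -0.10 and 0.60 for 6 of T cells, between -0.05 and 0.70 (Csf1r) for 4 of myeloid cells, between 0.18 and 0.54 for 3 of adipocytes, between 0.00 and 0.67 for 13 of lymphoid follicles, Cxcl13 among them with 0.61, and between -0.48 and 0.46 for 6 of colon position.

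Promoters of 3 of these genes are shown because they carry, or lack, letters known from the control of antibody genes and of the secretory program. They run 5′ to 3′ over 300 bases around the start (RefSeq, GRCm38.p6), for Derl3 at chr10:75893148-75893447 on the + strand, for Jchain at chr5:88527848-88528147 on the - strand and for Vpreb3 at chr10:75948050-75948349 on the + strand. Capitals mark a match of either of 2 motifs on either strand, the octamer ATGCAAAT of immunoglobulin promoters and the endoplasmic reticulum stress response element, CCAAT and CCACG with 9 bases of any kind between them, of which only the fixed letters are raised.
Derl3: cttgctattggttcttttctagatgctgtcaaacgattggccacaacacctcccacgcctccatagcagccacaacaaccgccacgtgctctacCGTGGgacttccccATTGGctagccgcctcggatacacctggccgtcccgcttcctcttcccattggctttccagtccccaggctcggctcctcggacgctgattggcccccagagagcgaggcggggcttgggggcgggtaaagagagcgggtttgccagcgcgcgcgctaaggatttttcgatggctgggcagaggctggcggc
Jchain: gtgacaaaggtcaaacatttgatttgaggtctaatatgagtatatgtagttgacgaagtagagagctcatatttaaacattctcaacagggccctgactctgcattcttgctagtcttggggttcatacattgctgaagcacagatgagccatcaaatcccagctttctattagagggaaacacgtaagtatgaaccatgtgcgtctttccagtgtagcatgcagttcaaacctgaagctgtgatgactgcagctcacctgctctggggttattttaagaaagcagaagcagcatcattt
Vpreb3: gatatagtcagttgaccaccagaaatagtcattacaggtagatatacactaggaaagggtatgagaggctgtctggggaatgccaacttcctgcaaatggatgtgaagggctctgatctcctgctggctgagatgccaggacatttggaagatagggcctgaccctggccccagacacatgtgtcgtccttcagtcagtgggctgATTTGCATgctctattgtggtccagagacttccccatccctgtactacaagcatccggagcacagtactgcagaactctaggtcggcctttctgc
The Derl3 window holds the stress response element once, on the reverse strand, and the Vpreb3 window the octamer once, also reversed. The Jchain window holds neither. Of 32851 promoters of this length, 570 hold the octamer (1.74%) and 39 the stress response element (0.119%), and the latter was searched for after the Derl3 window had been read. None of 19 promoters of the plasma cell list and none of 17 of the mature B cell list holds the octamer, and Derl3 and Creld2 of the plasma cell list hold the stress response element. Promoters of the segments themselves were not analysed here.

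HFD was compared with LFD in each sex or surgery on its own 8 arrays. A probe was called where it changed at least 1.5-fold with an unadjusted limma p under 0.05, as the study set its thresholds. No probe of the whole array, segment probes included, had an adjusted p under 0.05 in limma in any of the 3 comparisons, where 1593, 900 and 877 probes had an unadjusted p under 0.05 in M, F and F(OVX). With the methods' t-test there was likewise no probe under 0.05 after adjustment.

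In males the segments did not move one way. Their median difference, HFD minus LFD, was -0.16 with 29 probes higher and 55 lower, beside 0.01 over all 21160 probes. The direction rested on single mice, since the median was -0.71 once M + LFD replicate 1 was left out, 0.17 once M + LFD replicate 4 was, and 0.32 once M + HFD replicate 4 was. It was -0.78 without M + LFD replicates 1 and 2. Of 104 segment probes tested, 1 was called higher, where 2.38% of all probes were, and 1 lower, where 1.85% were, and 1 did not overlap between the diets, where 2.62% did not. With M + LFD replicate 1 dropped 9 were called, with M + HFD replicate 3 dropped 7 and with M + HFD replicate 4 dropped 4, and the replicate block gave 4. The share of all probes called with arrays left out or with the block is not given here. The rule drew on this contrast, and nothing is read from the counts.

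The called probes in males were ENSMUST00000103495, lower, and ENSMUST00000103335, higher. ENSMUST00000103495 read 7.39, 8.33, 6.82 and 8.32 on LFD and 6.33, 5.21, 6.72 and 6.37 on HFD, a difference of -1.56 with no overlap. ENSMUST00000103335 read 3.53, 5.65, 3.93 and 7.47 on LFD, where 3 of 4 arrays were well above background, and 8.21, 6.61, 8.50 and 8.51 on HFD, a difference of 2.81 with overlap. The latter went its own way, with r = 0.18 to the other members. Among probes detected on all 8 arrays the largest differences were -1.18 for ENSMUST00000103378, -1.17 for ENSMUST00000103367, -1.14 for ENSMUST00000103369, -1.13 for ENSMUST00000103548 and 1.01 for ENSMUST00000103426, none of them called. Hoxb13 was called higher on HFD by the same rule (5.56, SE 2.43, limma adjusted p = 0.81), in the comparison that holds M + LFD replicates 1 and 2, and 6 of 6 T cell genes read lower, of which Cd3g fell by 0.64 (SE 0.23, limma adjusted p = 0.81). The part of these in the segment values was not tested.

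Of the 16 plasma cell and 16 mature B cell genes tested in males, none was called. Jchain differed by -0.42 (SE 0.52), Mzb1 by -0.01 (SE 0.66) and Derl3 by -0.07 (SE 0.69), with exact permutation p of 0.57, 0.97 and 0.89 (two-sided, n = 4 against 4, smallest possible p 0.0286). Their limma adjusted p-values were 0.95, 1.0 and 0.99. These differences rested on single mice. Without M + LFD replicate 1 Jchain differed by -0.89, Mzb1 by -0.56 and Derl3 by -0.73. The highest values with single arrays left out were -0.16, 0.47 and 0.31, in the same order. B cell genes read higher on HFD in 14 of 16, with a median of 0.62, whereas 55 of the 84 segment probes read lower. With single arrays left out, Ms4a1 ran from -0.01 to 1.81 and Cd79b from -0.04 to 1.53, both lowest without M + LFD replicate 1.

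In intact females most segment probes read lower on HFD. The median difference was -0.44, with 6 probes higher and 78 lower, beside 0.02 over all probes, of which 54.0% were higher. Leaving out each array moved it between -0.71 (without F + LFD replicate 1) and -0.26 (without F + LFD replicate 4). Of 116 segment probes tested, 11 were called and all were lower, where 0.691% of all probes were called lower, and 4 did not overlap between the diets, where 1.98% did not. Nothing is read from these counts, as above. With the replicate number, which is also the column on the slide, as a block, 21 were called. The number ran from 6 without F + LFD replicate 4 to 42 without F + LFD replicate 1. It was 18 when F + LFD replicate 2 was dropped and 7 for each of F + LFD replicate 3 and F + HFD replicate 1. The share of all probes called under these settings is not given here, and nothing is read from these numbers either.

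The largest difference in females was that of ENSMUST00000103461. It read 7.90, 6.58, 7.87 and 8.93 on LFD and 5.36, 6.14, 6.26 and 6.52 on HFD, a difference of -1.75 with no overlap. ENSMUST00000103448 read 7.74, 9.19, 8.79 and 8.91 on LFD and 7.29, 7.59, 6.68 and 7.50 on HFD, a difference of -1.39, again with no overlap. ENSMUST00000103444 moved with it over the 24 arrays (r = 0.98) and differed by -1.28, and the diets overlapped in it through F + LFD replicate 1. The other called probes that did not overlap were ENSMUST00000103363, at 8.45 ± 0.22 on LFD and 7.53 ± 0.24 on HFD, and ENSMUST00000103341, at 10.33 ± 0.36 and 9.74 ± 0.16 (SD, n = 4). ENSMUST00000103462, which neighbours ENSMUST00000103461 in number and was detected on 13 arrays in all, differed by -1.43, and ENSMUST00000103473, ENSMUST00000103383 and ENSMUST00000103472 differed by -0.96, -0.90 and -0.81, each with overlap. The called segments thus lay in both parts of the range. Among probes not called, ENSMUST00000103335 was higher by 1.15, and ENSMUST00000103323 differed by -1.0, on HFD. ENSMUST00000103410 read 16.31 ± 0.29 on LFD and 15.91 ± 0.27 on HFD (SD, n = 4), and its difference of -0.40 shrank to 0.00 when arrays were scaled to the 75th percentile of signal in place of quantile normalization.

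Of 17 plasma cell and 18 mature B cell genes tested in females, none was called. Plasma cell genes read lower on HFD in 16 of 17, with a median of -0.29, and B cell genes higher in 12 of 18, with a median of 0.16. Jchain read 14.62, 14.24, 14.79 and 15.14 on LFD and 13.89, 14.27, 14.24 and 14.10 on HFD. Its difference of -0.57 (SE 0.20, exact permutation p = 0.057, limma p = 0.021, adjusted p = 0.99) lay just inside the fold threshold. It was past it without F + LFD replicate 1 (-0.60) or 2 (-0.73), or F + HFD replicate 2 (-0.62) or 3 (-0.61). Mzb1 differed by -0.29 (SE 0.44) and Derl3 by -0.45 (SE 0.30), with limma adjusted p of 0.99 for both. In the same comparison 5 of 6 T cell genes (median -0.34), 3 of 4 myeloid genes (-0.38) and 9 of 12 lymphoid follicle genes (-0.30) read lower on HFD, and all 5 smooth muscle genes read higher (0.50). None of these was called, and their part in the segment values was not tested.

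In ovariectomized females nearly all segment probes read lower on HFD. The median difference was -0.60, with 1 probe higher and 83 lower, beside 0.01 over all probes. With single arrays left out it was lowest without F(OVX) + HFD replicate 1, at -0.82, and highest at -0.46 when F(OVX) + LFD replicate 2 was dropped. Of 103 segment probes tested, 29 were called, all lower, where 0.97% of all probes were called lower. Of the 103, 12 did not overlap between the diets, where 2.24% of all probes did not. The number called was 49 when F(OVX) + HFD replicate 1 was dropped and 16 when F(OVX) + LFD replicate 2 was. The share of all probes called without these arrays is not given here, and nothing is read from these counts, as above.

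The largest difference after ovariectomy among probes detected on all 8 arrays was that of ENSMUST00000103330. It read 8.27, 9.92, 8.79 and 8.42 on LFD and 7.47, 6.43, 6.60 and 7.80 on HFD, a difference of -1.78 with no overlap. ENSMUST00000103320 read 11.29, 11.34, 10.84 and 11.42 on LFD and 9.95, 9.12, 9.50 and 10.46 on HFD, a difference of -1.46 with no overlap. Both are among the segments with wide ranges or bright signals, and ENSMUST00000103330 was higher by 0.91 on HFD in males, not called, where M + LFD replicate 1 read 4.76. ENSMUST00000103423 differed by -1.48 with overlap. Of dimmer probes, ENSMUST00000103310 read 6.68 ± 0.90 on LFD and 4.41 ± 0.90 on HFD, where it was well above background on 1 of 4 arrays, and ENSMUST00000103467 read 7.30 ± 0.33 and 5.59 ± 0.90 (SD, n = 4), both without overlap. ENSMUST00000103316 and ENSMUST00000103537 also separated the diets, with differences of -0.98 and -0.75. ENSMUST00000103492 was nearly level over the LFD mice, at 8.02 ± 0.07, and spread to 7.16 ± 0.78 on HFD (SD, n = 4). ENSMUST00000103339, the probe with the widest range over all arrays, was tight here, at 7.42 ± 0.35 on LFD and 6.70 ± 0.21 on HFD (SD, n = 4).

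A run of neighbouring accessions was picked out after its values were seen, and nothing is read from its counts. From ENSMUST00000103364 to ENSMUST00000103369, all 6 probes were called in ovariectomized females, with differences between -1.32 and -1.08, and 4 of them did not overlap. Of all probes in that comparison, 0.97% were called lower and 2.24% did not overlap. In females 1 of the 6 was called, ENSMUST00000103368, with differences between -0.97 and -0.17, where 0.691% of all probes were called lower. In males none was, with differences between -1.17 and 0.50, where 1.85% of all probes were called lower. ENSMUST00000103367 read 10.92, 10.57, 10.52 and 10.02 on F(OVX) + LFD and 9.95, 8.50, 8.70 and 9.60 on F(OVX) + HFD. As 2 pairs of these probes had r of at least 0.99 over the arrays, they are not 6 independent readings.

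**Figure D4:**
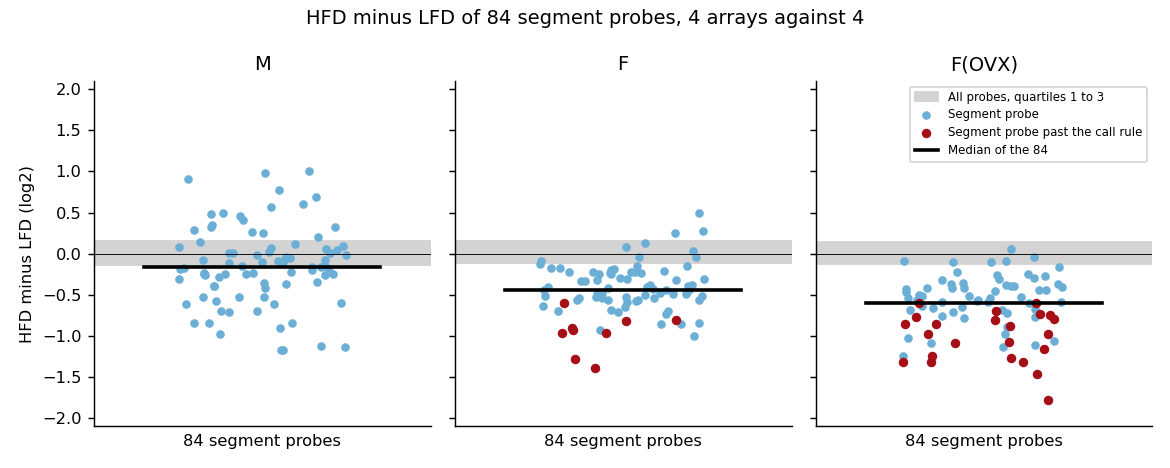
HFD minus LFD (vertical axis, log2) of the 84 segment probes in males, females and ovariectomized females, with 1 point for each probe spread sideways for legibility. Red points passed the call rule, black lines are the medians of -0.16, -0.44 and -0.60, and the grey band gives the quartiles of all 21160 probes.

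Of 15 plasma cell and 18 mature B cell genes tested after ovariectomy, Jchain was called. It read 14.28, 14.33, 13.76 and 14.06 on LFD and 13.97, 12.75, 12.89 and 13.95 on HFD, and the diets overlapped. Its difference was -0.72 (SE 0.31, exact permutation p = 0.11, limma p = 0.047, adjusted p = 1.0), and it was called neither by the methods' t-test nor in the fit of all 24 arrays. Mzb1 differed by -0.42 (SE 0.40) and Derl3 by -0.26 (SE 0.28), with limma adjusted p of 1.0 for both. The plasma cell list as a whole did not go one way, with 5 genes higher and 10 lower and a median of -0.03. Sdc1 read 10.77, 10.21, 10.27 and 10.76 on LFD and 11.08, 11.14, 10.85 and 10.84 on HFD, a difference of 0.47 under the fold threshold (SE 0.18, exact permutation p = 0.0286, the smallest possible, limma adjusted p = 1.0), and Xbp1 differed by 0.21 (SE 0.16, limma adjusted p = 1.0). B cell genes read lower in 15 of 18, with a median of -0.45. Markers of other cells moved too. All 5 smooth muscle genes read higher on HFD, with a median of 0.92, and 3 rose by the call rule, Des by 1.25, Actg2 by 0.92 and Cnn1 by 1.12 (limma adjusted p of 1.0 for each), while 5 of 6 T cell genes and all 4 myeloid genes read lower and none of these was called. Ccl20, a chemokine of the epithelium over lymphoid follicles, fell by 1.58 (SE 0.65, limma adjusted p = 1.0). On HFD 3 of 4 arrays had 100 to 103 segment probes above background and replicate 1 had 122, against 107 to 125 on LFD. Of all probes, these 3 arrays had 44.3% to 47.9% above background and replicate 1 had 56.5%, against 40.5% to 56.2% on LFD. The part of these in the segment values was not tested.

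**Figure D5:**
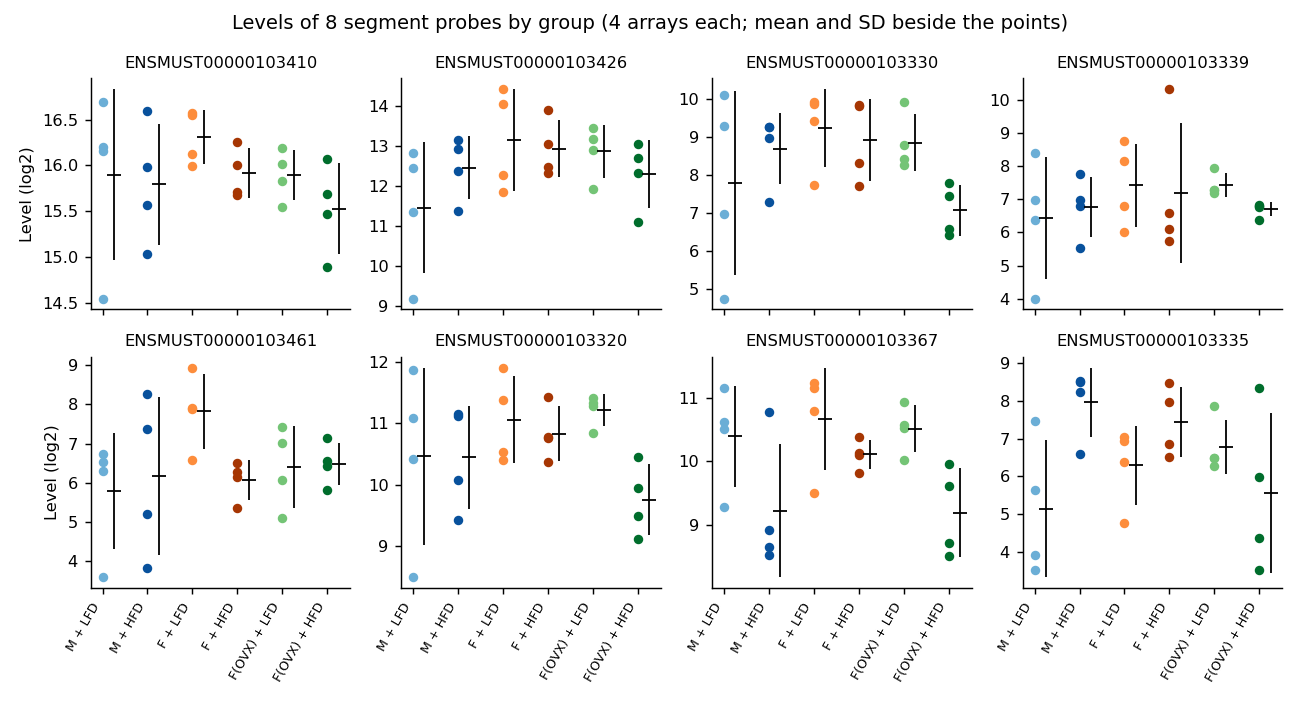
Levels (vertical axis, log2, scaled to each probe) of 8 segment probes in the 6 groups, with 4 arrays as points and their mean and SD as a cross and bar. ENSMUST00000103330 and ENSMUST00000103320 separate the diets in F(OVX), ENSMUST00000103461 separates them in F, and M + LFD replicate 1 is the lowest point of most panels.

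Segments called in more than 1 comparison of diets were ENSMUST00000103495, ENSMUST00000103459 and ENSMUST00000103368. ENSMUST00000103495 differed by -1.56 in males, -0.23 in females and -1.22 in ovariectomized females, and it followed the other members only loosely (r = 0.43). ENSMUST00000103459 differed by -0.18, -0.80 and -0.59. ENSMUST00000103368 differed by 0.48, -0.97 and -1.27. These comparisons share no arrays, but all arrays were normalized together and the range was selected on these contrasts. The share of all probes called more than once is not given here, and nothing is read from the repeats.

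Differences between the diet effects were taken in 1 fit of all 24 arrays. The effect in M against that in F was called lower in 1 of 116 segment probes, where 1.5% of all probes were, that in F(OVX) against F lower in 1 of 116, where 0.968% were, and that in M against F(OVX) in 4 of 106, all higher in M, where 3.02% of all probes were called higher. These contrasts share arrays, and none of the probes on the array had an adjusted p under 0.05 in limma, where 1081, 644 and 1958 had an unadjusted p under 0.05. The medians of -0.16 in M, -0.44 in F and -0.60 in F(OVX) were thus not shown to differ, and not shown to be alike.

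At a single diet, most segment probes read lower in males than in intact females, and this shrank when chosen male arrays were left out. On LFD all 84 probes were lower in M, with a median of -0.82, and 13 of 116 were called lower, where 2.05% of all probes were. Without M + LFD replicates 1 and 2, which stand apart in Hoxb13, the median was -0.16 with 30 probes higher and 54 lower, 1 probe was called higher and 1 lower, and 1.98% and 1.3% of all probes were called higher and lower. On HFD 77 of 84 were lower, with a median of -0.59, and 2 of 105 were called, both lower, where 3.95% of all probes were. Without M + HFD replicate 4, the lowest array of that group, the median was -0.12 with 30 probes higher and 54 lower. Then 1 probe was called higher and 1 lower, and 4.06% and 3.44% of all probes were called higher and lower. Leaving out the lowest array of M narrows the difference by construction, and no F array was left out to match. On LFD, M + LFD replicate 1 was the lowest of its group in the segment median (7.00), and replicate 2 was not (9.02). Ovariectomized females read below intact ones on LFD (median -0.38, 77 of 84 lower, 0 of 116 called either way, where 1.54% of all probes were) and on HFD (median -0.57, 79 of 84 lower, 6 of 106 called lower, where 1.45% of all probes were). No segment probe had an adjusted p under 0.05 in limma in these 4 comparisons, where 0.261%, 0.443%, 0% and 0% of all probes had, in the order given. The comparisons share F + LFD or F + HFD arrays, and each sex or surgery was on its own slide, so the slide and the mice cannot be told apart.

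Mature B cell genes read lower in M than in F on LFD in all 18 tested (median -1.77, or -0.44 without M + LFD replicates 1 and 2), and on HFD in all 16 tested (median -0.98, or -0.28 with 12 of 16 lower without M + HFD replicate 4). Of these, Bank1 (-2.22, SE 1.01) and Bach2 (-1.25, SE 0.38) were lower by the call rule on LFD and Bach2 (-0.98, SE 0.38) on HFD, with limma adjusted p of 0.52, 0.25 and 0.24. Without M + LFD replicates 1 and 2, Bank1 was not called on LFD (-1.12, SE 1.23) and Bach2 was (-1.04, SE 0.46, limma adjusted p = 0.91). Pigr, the receptor that carries IgA out of the tissue and is made by the epithelium, read higher in males. It read 14.84, 14.88, 15.07 and 15.19 in M + LFD and 14.19, 14.18, 14.05 and 13.94 in F + LFD. It read 14.76, 14.99, 14.88 and 14.91 in M + HFD and 14.30, 13.92, 14.08 and 14.03 in F + HFD. The sexes did not overlap on either diet, and Pigr was higher in M by 0.91 (SE 0.18, limma adjusted p = 0.031) on LFD and by 0.80 (SE 0.18, limma adjusted p = 0.047) on HFD. Without M + LFD replicates 1 and 2 the difference on LFD was 1.04 with a limma adjusted p of 0.18, and without M + HFD replicate 4 that on HFD was 0.79 with a limma adjusted p of 0.11. The epithelial genes also read higher in M, in 5 of 5 on LFD (median 0.12, or 0.04 with 3 of 5 higher without M + LFD replicates 1 and 2) and in 4 of 5 on HFD (median 0.24). Epcam differed by 0.35 and 0.50, none of the 5 was called, and their part in the Pigr values was not tested. In ovariectomized females Pigr read 14.26 ± 0.42 on LFD and 14.19 ± 0.34 on HFD (SD, n = 4), and slide and sex cannot be told apart for it either.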

How the data were processed

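Gene expression in the colon of 24 mice (6 groups of 4 by the labels, whereas the methods name more animals per group) was measured on Agilent 1-color arrays and extracted by the authors with Agilent Feature Extraction 11.0.1.1, per the submitters' processing notes. The animals were those closest to the mean body weight of their group. The deposited values are spot intensities, background-subtracted and detrended by the scanner software, on a linear scale and not normalized between arrays. The authors also deposited median signal and background intensities and flags of 0 or 1 for each spot. No column was left unmapped. Of 62976 spots, 59305 were not controls, for 56605 probes.

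Outlier spots were set missing, which touched no segment value, and the log2 processed intensity, computed here from the deposited intensities, was quantile-normalized over 24 arrays and averaged over the spots of a probe. A probe with several spots was well above background if most of its spots were. Symbols came from a RefSeq gene table (GRCm38.p6) by accession, for 32994 probes and 22911 symbols, with the brightest probe for a symbol. The array annotation names an older assembly (mm9), so no coordinates of probes are given. Depth is signal over background, and precision is limited by how many arrays there are. The gene table gives immunoglobulin segments no transcript accession, so none was named.

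Each diet comparison was fitted on its own 8 arrays in limma 3.58.1 (R 4.3.3), over probes that were well above background throughout at least 1 of the groups, with Benjamini-Hochberg adjustment over all probes tested. Comparisons between sexes or surgery, and differences of diet effects, used 1 fit of all 24 arrays. Single genes were also compared by exact permutation of 70 assignments. Medians and likeness were taken over the 84 segment probes well above background on all 24 arrays. The members and the gene lists were chosen with earlier results of these data known. Named segments are the 10 brightest probes, the 5 with the widest range, the 5 with the largest difference in each diet comparison among probes detected on all 8 arrays, and those called more than once. Further segments were named after their values were seen, for a diet comparison, for likeness to other probes or for their place in the range. Some marker genes fixed for naming are not reported here. Lists covered plasma cells, mature B cells, IgA transport and homing, early B cells, lymphoid follicles, T cells, epithelium, smooth muscle, myeloid cells, adipocytes and colon position. Per the methods, cages held more than 1 mouse, and which of these mice shared a cage is not given. The p-values measure the spread between these mice and take each mouse as independent.

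Deviations from the group means correlated between arrays of the same replicate number at r = 0.29, 0.42, 0.58 and 0.26 in F. They did so at 0.01, -0.26, 0.00 and -0.02 in M, and at 0.33, -0.07, 0.32 and 0.25 in F(OVX). The replicate number is also the column of an array on its slide, and no pairing of mice is stated. A pairing of mice and the position of the array thus cannot be told apart. Tested on simulated data with 200 probes changed 4-fold, the call rule found 100% of them in M, 96% in F and 98.5% in F(OVX). An adjusted p under 0.05 found 79.5%, 81.5% and 81.5%, over 26117, 28234 and 24433 probes. The changed probes were drawn from all probes tested, with their own SDs. As segment probes had a larger SD within groups (median 0.90 against 0.30), these shares do not give the recovery for them or for smaller changes. Alternatives were 75th percentile scaling, normexp background correction (offset 50), other filters on dim probes, outliers kept, the methods' t-test, a fit of all 24 arrays, the replicate block, the brightest probe for each accession and leaving out arrays. M against F on LFD without M + LFD replicates 1 and 2, M against F on HFD without M + HFD replicate 4, and the means of Jchain, Mzb1 and Derl3 and of Ms4a1 and Cd79b were chosen after seeing the data.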

Additional observations from a re-analysis of the deposited data

Results flagged for a closer look

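Within groups of 4, a mouse was set apart where its gap to the nearest of the others took more of the range of the group than Dixon's critical value allows. Of 294 groups of values examined (49 probes or genes in 6 groups), 18 had such a mouse, and chance gives about 5% of groups. No explanation was weighed for any of them.

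M + LFD replicate 1 read low in ENSMUST00000103461 (3.591), ENSMUST00000103448 (6.212), ENSMUST00000103444 (5.986) and ENSMUST00000103459 (7.507). M + HFD replicate 4 read low in ENSMUST00000103328 (8.96), ENSMUST00000103330 (7.304) and the dimmer probe of ENSMUST00000103426 (7.761, against 9.86 to 9.91 on the other arrays). M + HFD replicate 2 read low in ENSMUST00000103335 (6.605).

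In intact females, ENSMUST00000103444 read low on F + LFD replicate 1 (7.516) and ENSMUST00000103317 on F + HFD replicate 1 (9.63), whereas ENSMUST00000103418 read high on F + HFD replicate 3 (13.53) and Ccr10 on F + LFD replicate 4 (5.781).

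In ovariectomized females, ENSMUST00000103359 (12.23) and ENSMUST00000103335 (7.849) read high on F(OVX) + LFD replicate 2, and ENSMUST00000103339 (7.95) and Irf4 (7.977, against 6.92 on each of the others) on F(OVX) + LFD replicate 1. F(OVX) + HFD replicate 2 read low in ENSMUST00000103339 (6.386) and ENSMUST00000103323 (5.267).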

How the results depend on the processing

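The median difference kept its sign in F and F(OVX) under 75th percentile scaling, normexp, no filter, outliers kept and each array left out, between -0.71 and -0.26 in F and between -0.82 and -0.46 in F(OVX), and ran from -0.71 to 0.32 in M with arrays left out. Segment probes called in M numbered 2, against 0 among probes detected on all 24 arrays, 4 in the fit of all 24 arrays, 4 with the replicate block, 5 without M + LFD replicates 1 and 2 together and 2 to 9 with each array left out. In F they numbered 11, against 7 by the methods' t-test, 3 in the fit of all 24 arrays, 21 with the replicate block and 6 to 42 with each array left out. In F(OVX) they numbered 29, against 17 by the methods' t-test, 10 in the fit of all 24 arrays and 16 to 49 with each array left out. By the t-test, 2.3% of all probes were called in M, 0.627% in F and 1.03% in F(OVX). The share of all probes called under the other settings is not given here, and nothing is read from these counts. Plasma and B cell genes called in F(OVX) numbered 1, against 0 with no filter, by the methods' t-test and in the fit of all 24 arrays and 0 to 1 with each array left out, and with arrays left out they ran from 0 to 4 in M (4 without M + HFD replicate 4) and from 0 to 2 in F. The block moved no other count by more than 1.5 times, and the cause of these shifts was not tested. Quantile normalization, 4 mice a group, probes whose cross-binding between like segments was not tested, and slides that each hold 1 sex or surgery limit all values, and probes detected on few arrays are near background.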
